A study of Mus musculus with 4 samples.

Results

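The cells described here were 70 of 6562 single cells from the fetal mouse cortex that carried the messenger RNA of Olig1 together with genes of glial progenitors. A cell was counted when it had at least 1 unique molecular identifier (UMI, the tag that marks 1 captured RNA molecule) of Olig1, at least 1 of Fabp7, and at least 1 of Slc1a3, Mt3 or Ednrb. Cells with Top2a, Dlx1 and Dlx2 all above 0 were set aside as cycling Dlx-positive progenitors, and cells whose barcode occurred in all 4 libraries (224 cells) were not considered. The 70 cells were thus drawn from 6338, and all 70 enter every comparison between libraries.

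Single-cell RNA-Seq was performed on dissociated E18.5 cortex of C57BL/6J mice, sorted for the surface protein CD24, used as a pan-neuronal marker, and against CD45, a marker of blood cells. There were 2 Setd5+/+ fetuses (libraries WT3 and WT6) and 2 Setd5+/- fetuses (Het5 and Het9), with 1 library from each. Setd5+/- animals carried 1 Setd5 GFP knockout allele in every cell of the body, and no treatment or further allele was given for either genotype. Setd5 encodes a SET-domain chromatin protein, and its loss on 1 allele in people is linked to autism and intellectual disability.

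Olig1 and its neighbour Olig2 encode basic helix-loop-helix transcription factors that are best known for directing progenitors to the oligodendrocyte lineage, whose mature cells make myelin. Around birth, radial glia, the stem cells of the developing forebrain, change from making neurons to making glia. Some of their progeny express Olig genes together with the receptors Egfr or Pdgfra, and oligodendrocyte precursors arise first from ventral and later from dorsal parts of the forebrain. Fabp7 (brain fatty acid binding protein), Slc1a3 (the glutamate transporter GLAST), Mt3 (a metallothionein) and Ednrb (the endothelin receptor type B) are all expressed in radial glia and young astrocytes.

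In the GRCm38 (mm10) assembly Olig1 lies on chromosome 16 from 91269772 to 91271933 on the plus strand. Olig2 lies on the same strand of chromosome 16 from 91225457 to 91228677, and 41094 bases separate the genes. The reads come from the 3′ ends of poly(A) RNA, so levels are compared between cells and not between genes.

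WT3 gave 16 of the Olig1-positive glial progenitors, WT6 gave 38, Het5 gave 12 and Het9 gave 4. Their median depth was 6850 UMIs, against 5781 over the cells as a whole, and the library medians lay between 6465.5 and 8090. A median of 2629 genes was detected per cell, and mitochondrial RNA made up 3.33% of UMIs. Of the 70 cells, 69 had a barcode seen in 1 library only and 1 shared its barcode with 1 other library. The doublet caller Scrublet marked 2 of the 70 (2.86%). The labels state about 2500 cells per sample, whereas the deposited table held 1445 to 1954 per library.

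The genes that chose these cells are given as a description. Mean Olig1 was 9.24 counts per 10000 UMIs (SD 12.8 over the 70 cells) and mean Fabp7 was 69.0. Slc1a3 was found in 58 cells, Ednrb in 50 and Mt3 in 51, and 35 cells held all of these genes whereas 16 held only 1 of them. The rule turned on few molecules, as 31 of the 70 cells had a single Olig1 UMI and the median was 2. Just outside it were 16 Olig1-positive cells without Fabp7, of which 12 had 1 Olig1 UMI, and 16 with Fabp7 but none of the other glial genes, of which 14 had 1. A further 12 Olig1-positive cells were set aside as cycling and Dlx-positive, and 9 of those had 1 UMI. In 1200 cells that had the neuronal genes Neurod2 or Neurod6 and none of Fabp7, Slc1a3, Mt3 and Ednrb, Olig1 was found in 3 (0.25%, exact binomial 95% interval 0.0516 to 0.729; median depth 5208 UMIs). Intervals on shares of cells cover counting error only.

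Beyond the genes of the rule, markers of the oligodendrocyte precursor and of the astrocyte lineage were found in part of the cells. Ptprc, which encodes CD45, was at 0 in every one of the 70 cells. Cd24a, the gene of the sorting marker, was found in 53 of the 70, against 93.2% of other cells, at library means of 3.37, 3.12, 3.14 and 2.51 counts per 10000. That level compared with 7.01 in glial cells without Olig1 and 13.5 in all other cells. Olig2 was found in 42 of the 70 (60.0%). Of the precursor markers, Sox8 was found in 20 cells, Nkx2-2 in 9, Lhfpl3 in 8 and Gpr17 in 3, and Matn4 was at 0. The myelin gene Mbp was found in 2 cells. Among markers of the astrocyte lineage, Aldoc was found in 32 cells and Aldh1l1 in 19, whereas Aqp4 and Gfap were each found in 1 and S100b was at 0.

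Genes of other cell types were counted next. The summed level of 4 intermediate progenitor markers (Eomes, Neurog2, Neurog1 and Insm1) was 0.174, 0.579, 0.467 and 0 counts per 10000 in WT3, WT6, Het5 and Het9, against 7.40 to 10.2 in glial cells without Olig1. Of 7 microglial or immune markers 5 were at 0, and the sum was 0.116, 0, 0 and 0.270 against 0.0283 to 0.0802. Of 4 endothelial markers Cldn5 and Flt1 were at 0, and the sum was 0, 0.0502, 0.271 and 0.362 against 0 to 0.0540. Both Setd5+/- libraries were above both Setd5+/+ libraries and above that range, but their sums rest on few molecules. Over the cells of both Setd5+/- libraries together, 3 UMIs give 0.275 counts per 10000. The 3 pericyte markers, with Vtn at 0, summed to 0.0889, 0.0567, 0.120 and 0.362 against 0.0676 to 0.148. Of 5 melanocyte markers 4 were at 0, and the sum was at most 0.0697 against 0.0766 to 0.169. The 8 interneuron or subpallial markers, of which Gad1 and Lhx6 were at 0, summed to 1.09, 3.02, 1.11 and 0, against 1.84 to 2.69 in glial cells without Olig1, so that WT6 was above that range. The 3 ependymal markers summed to 0.443, 0.408, 0.501 and 0, against 0.0369 to 0.149. The 6 excitatory neuron markers summed to 1.10, 0.733, 1.17 and 0.752, against 7.56 to 11.4. Of 3 choroid plexus markers Folr1 and Clic6 were at 0, and the sum was 0, 0.400, 0 and 0 against 0 to 0.115. Of 3 meningeal fibroblast markers Col1a1 and Dcn were at 0, and the sum was 0.127, 0.0461, 0 and 0 against 0.0308 to 0.0690. The part of such cells in the results was not tested. Hemoglobin and other erythroid genes, which serve as a sign of free RNA in the suspension, summed to 4.65 to 15.2 in these cells and to 15.9 to 64.0 over all cells of a library.

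The 10 genes with the largest ratio of the mean in these cells to the mean in all others were Olig1 (78.9), Fgf17 (21.1), Olig2 (14.8), Slc14a2 (12.4), Ednrb (11.9), Hes5 (11.8), Mfge8 (11.1), Apoe (10.4), Metrn (10.3) and Slc1a3 (10.2). Olig1, Ednrb and Slc1a3 were part of the rule. Hes5 is a Notch target that keeps progenitors undifferentiated, Apoe and Mfge8 encode secreted proteins of astrocytes and radial glia, and Metrn is a secreted factor of neural progenitors. Fgf17 is a growth factor of the rostral patterning center of the forebrain, and it came from 8 cells only.

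The 70 cells were not uniform. They are split here by Olig1 level into 31 cells with 1 UMI, 18 with 2 to 4 and 21 with 5 or more, a split that was made after the values were seen and is given with no test. Median depth was 6912, 6735.5 and 6788 UMIs in that order, while single cells ranged from 1932 to 12340 UMIs over the 70. The 21 cells with most Olig1 came from every library, 4 from WT3, 11 from WT6, 4 from Het5 and 2 from Het9.

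Pdgfra, the receptor that defines oligodendrocyte precursors, was found in 7 cells, and all 7 had 5 or more Olig1 UMIs. Sox10, a transcription factor of the oligodendrocyte lineage, was found in 4 cells, and Cspg4, the NG2 proteoglycan, in 3, all of the same class. None of these genes was found in the 49 cells below 5 Olig1 UMIs, a count of 0 that allows a share of cells with a UMI of up to 6.12% at 3 counts (7.25% by the exact binomial 95% interval) and sets no limit on cells that express the genes below detection. C1ql1, a secreted protein of precursors, was found in 0, 1 and 8 cells of the classes from low to high Olig1. Serpine2, a secreted protease inhibitor, was found in 2, 0 and 11. Spry4, which is induced by receptor tyrosine kinase signaling, was found only in 5 cells of the high class. Detection of Olig2 went from 14 of 31 to 10 of 18 and 18 of 21, and that of Ptch1, the Sonic hedgehog receptor and target, from 8 to 8 and 16. Egfr was found in 3, 2 and 8 cells.

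Zic1 and Zic4, which encode zinc finger factors of the septum and medial forebrain, were each found in 16 of the 31 cells with 1 Olig1 UMI, in 11 and 12 of the 18 with 2 to 4, and in 8 and 6 of the 21 with 5 or more. Slc14a2, a urea transporter gene, was found in 12, 11 and 6. Slc1a2, the astrocyte glutamate transporter GLT-1, was found in 16, 6 and 7. The plot of detection by Olig1 class sets these genes side by side.

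**Figure D1:**
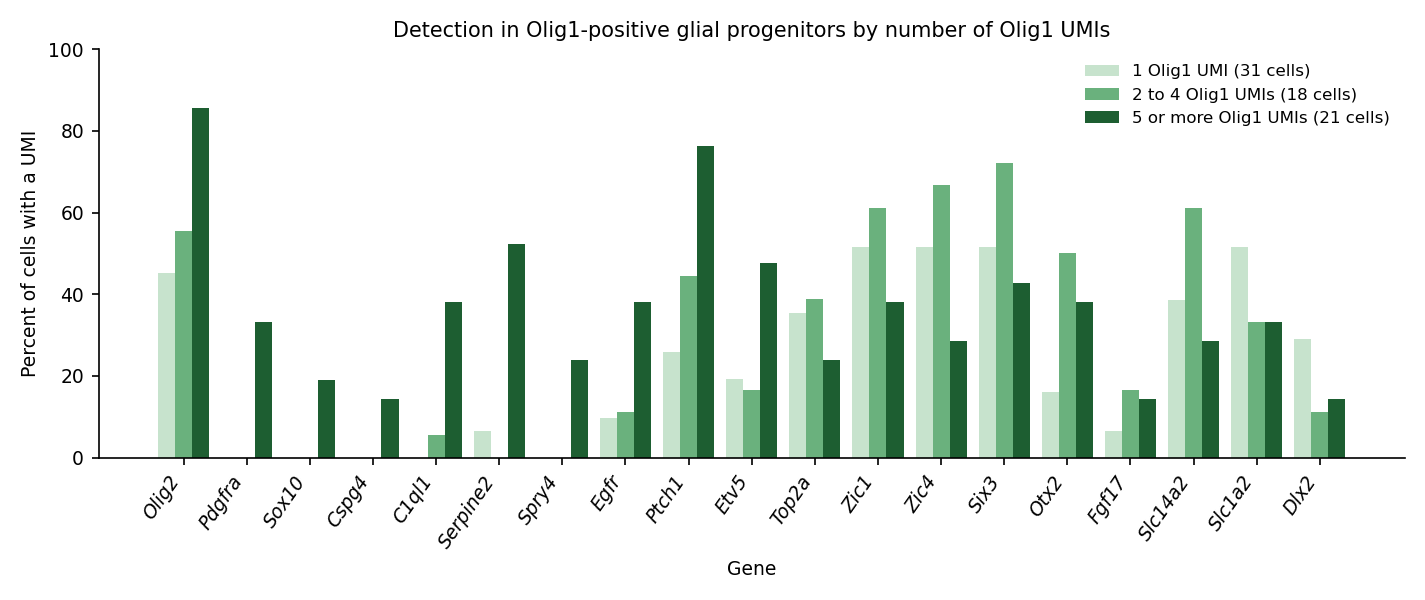
Percent of Olig1-positive glial progenitors with at least 1 UMI of each gene (horizontal axis, genes; vertical axis, percent of cells), by Olig1 level (31 cells with 1 UMI, 18 with 2 to 4, 21 with 5 or more). Pdgfra, Sox10 and Cspg4 appear only at 5 or more Olig1 UMIs, whereas Zic1 was found in 16, 11 and 8 cells of the classes. The differences between classes were not tested.

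Which genes were found in the same cells was counted next. The 8 cells with Pdgfra or Sox10 all had Olig2 and had 7 to 50 Olig1 UMIs (median 17). None of them had Zic1 or Zic4, which were found in 39 of the 70 cells, and none had Otx2, Fgf17 or Fgf8. With 8 cells, a count of 0 allows a share of cells with a UMI of up to 37.5% at 3 counts, so a weaker overlap was not detectable. Dlx1 or Dlx2, homeobox genes of the ventral forebrain, was found in 3 of the 8.

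The 8 cells with Fgf17 all had Zic1 or Zic4. Otx2, a homeobox gene of the midbrain and of medial forebrain, was found in 7 of them, Fgf8 in 5 and Olig2 in 3. Fgf8 itself was found in 6 cells, each with Otx2 and with Zic1 or Zic4. Among the 39 cells with Zic1 or Zic4, 25 had Six3, 19 had Otx2, 18 had Olig2 and 10 had Nkx2-1, which are genes of rostral and ventral forebrain. Nkx2-1, the medial ganglionic eminence factor, was found in 14 cells, of which 11 had Olig2. Emx1, a marker of the cortical stem cell layer, was found in 5 of the 70 cells. Zic1 (chromosome 9, 91358058 to 91365810, minus strand) and Zic4 (chromosome 9, 91362413 to 91389348, plus strand) overlap in the annotation. The shared stretch lies at the start of both genes, whereas the reads come from the 3′ ends of RNA. The strand setting of the counting is not given in the sources used here, so reads from that stretch could be counted for the other gene.

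**Figure D2:**
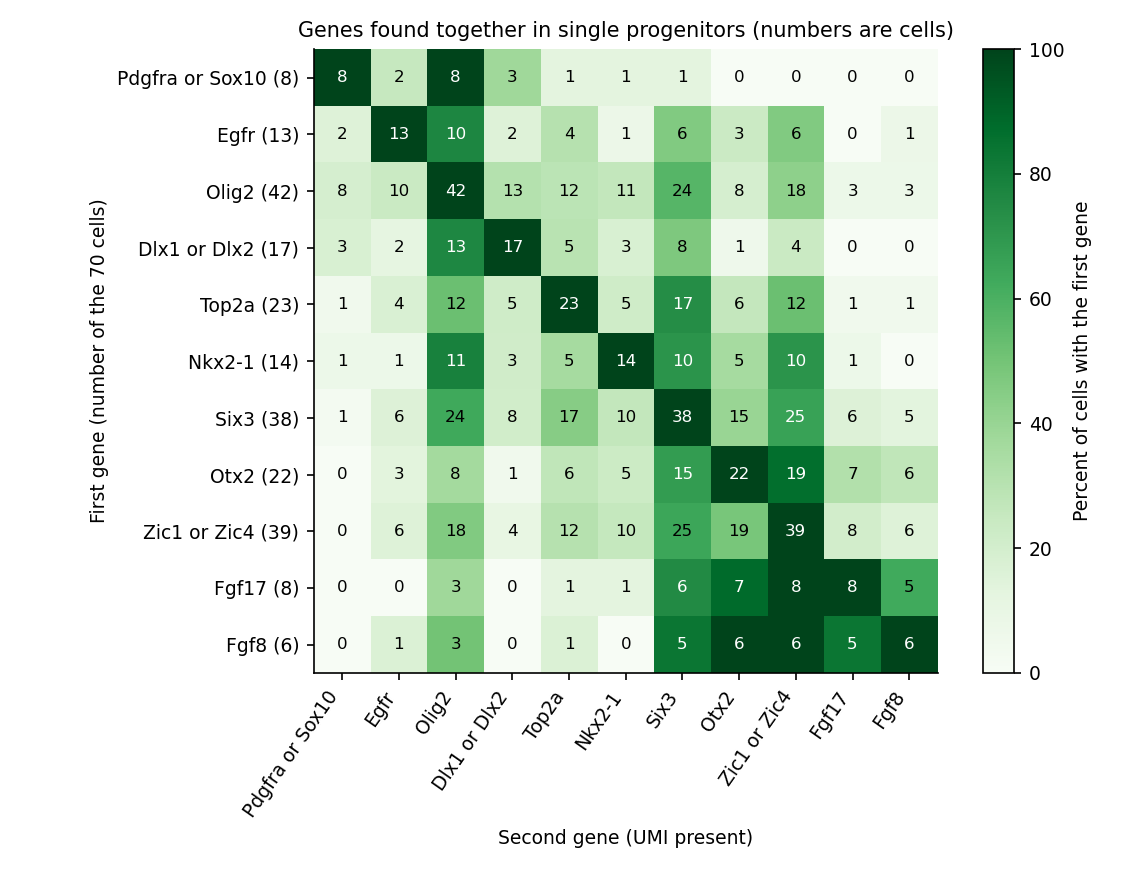
Number of Olig1-positive glial progenitors (of 70) in which both genes or gene pairs of a row and a column were found, with the number of cells holding each gene on the diagonal and the color giving the percent of cells with the row's gene (scale 0 to 100). Pdgfra or Sox10 (8 cells) shared no cell with Zic1 or Zic4 (39 cells), Otx2 or Fgf17, whereas all cells with Fgf17 (8) and Fgf8 (6) lay among those with Zic1 or Zic4, of which 19 had Otx2.

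To see what set these cells apart from like cells, they were compared with 1325 glial cells that met every part of the rule except that Olig1 was at 0 (229, 412, 421 and 263 in WT3, WT6, Het5 and Het9). Median depth was 6850 UMIs with and 6581 without Olig1. Each library gave a mean for each kind of cell, in counts per 10000 UMIs, and log2(mean + 0.1) was tested with limma with the library as a block. Fold changes on this scale understate the change of low genes. Both kinds of cell were chosen by expression, so the test asks whether a difference recurred over the 4 libraries, and the 8 genes of the rule were left out. Of 8378 genes tested, 100 were higher in the Olig1-positive cells (1.19%) and 174 were lower (2.08%) at an adjusted p under 0.05.

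The oligodendrocyte lineage list had 7 of its 18 tested genes higher and 0 lower, with a median log2 difference of 1.50, against -0.08 over all genes tested. Olig2 was 2.65, 3.06, 3.96 and 3.02 counts per 10000 in the Olig1-positive cells of WT3, WT6, Het5 and Het9, and 0.214, 0.207, 0.145 and 0.147 in the cells without Olig1. Every library was thus far higher with Olig1, by 3.55 on the log2 scale (SE 0.29, limma adjusted p = 4.53e-08). Serpine2 was 1.48, 0.737, 1.10 and 2.08 against 0.0263 to 0.0849 (log2 difference 3.19, SE 0.40, limma adjusted p = 1.76e-05). It was under the minimum mean of 0.1 in every library without Olig1. It was thus tested through the Olig1-positive cells and could only come out higher.

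Ptprz1, a receptor phosphatase of radial glia and precursors, was 11.3, 7.43, 12.8 and 12.7 against 2.32 to 3.44 (log2 difference 1.96, SE 0.16, adjusted p = 4.91e-08). Vcan, Cspg5 and Bcan, which encode proteoglycans of the extracellular matrix, were higher by 1.90, 1.86 and 1.44, and Ncan, another of that kind, gave 0.52 and did not pass (adjusted p = 0.28). C1ql1 was higher by 1.99. Pdgfra was 0, 0.431, 0.592 and 0.212 against at most 0.00879, and did not pass (log2 difference 1.64, adjusted p = 0.11), being at 0 in WT3.

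The EGF and FGF pathway list had 4 of 18 genes higher and 0 lower (median 1.03). Egfr, the receptor that marks dividing multipotent and glial progenitors, was 0.762, 0.325, 0.233 and 1.86 against 0.0322 to 0.0504 (log2 difference 2.31, SE 0.49, adjusted p = 0.00628). Spry2 and Spry1, feedback inhibitors of receptor signaling, were higher by 2.38 and 2.20, and Sulf1, an extracellular sulfatase that edits heparan sulfate, by 2.07. Ptch1 was the only gene of 8 on the Sonic hedgehog list to pass, at 1.20, 1.53, 1.63 and 1.40 against 0.106 to 0.260 (log2 difference 2.47, SE 0.33, adjusted p = 4.02e-05). On the BMP and TGF-beta list, 2 of 14 genes were higher and 1 was lower, the ligand Bmp7 (1.72) and Id3 (2.00) being higher and Id2 lower (-1.32). Id2 and Id3 both encode inhibitors of basic helix-loop-helix factors. The Notch list had 1 of 16 higher, Hes5, at 4.84, 4.27, 3.72 and 1.59 against 0.667 to 1.29 (log2 difference 1.76, SE 0.25, adjusted p = 7.33e-05).

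The astrocyte lineage list had 9 of 26 genes higher and 2 lower (median 0.94). Apoe was 13.9, 5.52, 8.26 and 8.27 against 1.36 to 2.13 (log2 difference 2.28, SE 0.20, adjusted p = 1.28e-07). Mfge8 (1.71), Aldh1l1 (1.45) and the gliogenic transcription factor Sox9 (1.24) were also higher. The 2 lower genes were Nfib (-0.85) and Nfix (-1.30), nuclear factors of late radial glia and of neurons. Aldoc, a common astrocyte marker, was 3.84, 1.62, 1.96 and 5.21 against 1.68 to 3.47, and did not pass (log2 difference 0.17, adjusted p = 0.85). The radial glia and stem cell list had 7 of 34 higher and 3 lower, and the multipotent progenitor list had 4 of 19 higher and 3 lower. Sox2 (0.84) and the cyclin gene Ccnd1 (1.68) were among the higher genes. Lhx2, a cortical patterning factor, was 1.63, 1.48, 1.03 and 0.795 against 5.37 to 6.81 (log2 difference -2.29, SE 0.21, adjusted p = 1.50e-07), and Pax6 was lower by 1.83 on the log2 scale.

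Genes of the cortical neuron lineage were lower. The pallial list had 15 of 17 genes lower and 0 higher (median -2.29), and the neuronal differentiation list had 12 of 19 lower and 0 higher (median -1.32). Neurog2, which drives excitatory neurogenesis, was 0.174, 0.0766, 0 and 0 against 3.59 to 5.14 (log2 difference -4.89, adjusted p = 1.21e-08). Eomes, the intermediate progenitor factor, was found in 1 of the 70 cells and averaged 2.83 to 3.35 in the libraries without Olig1. Neurod6, Dcx, Tubb3 and Emx1 were lower by 4.14, 3.47, 2.60 and 2.38 on the log2 scale. The subpallial list had 1 of 13 genes lower, Meis2 (-1.22), and 0 higher (median -0.41). It had 3 higher and 2 lower with libraries weighted by number of cells (0.29), and 2 higher and 1 lower without Het9 (0.02). With the cells holding Top2a, Dlx1 and Dlx2 kept, 2 of 15 were higher and 3 lower (-0.51). Without cells with Top2a, 0 were higher and 2 lower (-0.21). The S phase list (24 genes) and the G2 and mitosis list (26 genes) had 0 called in either direction, with medians of 0.23 and -0.33.

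Of a list of 14 genes that the study named for its cluster 3 on these same samples, and which is therefore no independent evidence, 13 were tested. Zic4 and Cdkn1c, a cyclin-dependent kinase inhibitor, were higher, and Abracl and Nr2f1 were lower. Zic4 was 4.18, 2.84, 1.12 and 1.81 against 0.112 to 0.268 (log2 difference 2.94, SE 0.33, adjusted p = 3.52e-06). Zic1 was 2.00, 2.73, 0.769 and 0.362 against 0.307 to 0.765, with an adjusted p of 0.097. Slc14a2 was 2.54, 1.65, 3.87 and 1.09 against 0.240 to 0.346 (log2 difference 2.42, SE 0.32, adjusted p = 2.48e-05). Of the remaining lists, the immediate early and heat shock list had 1 of 10 lower (Hspa8), the endothelin and metallothionein list had 1 of 2 lower, and 0 of 4 sex genes passed.

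Some list genes were tested only because 1 kind of cell expressed them, and those could differ in 1 direction only. Among genes with a mean of at least 0.1 in both kinds of cell, 88 of 7385 were higher with Olig1 and 135 were lower. The pallial list then had 8 of 9 lower (median -2.27), the other 8 of its genes having reached 0.1 through the cells without Olig1. The EGF and FGF list had 0 of 9 higher (median 0.58), so that each of its 4 higher genes was tested through the Olig1-positive cells. The oligodendrocyte lineage list had 5 of 13 higher (median 1.44), the astrocyte lineage list 9 of 23 higher and 2 lower (median 0.80), and the neuronal differentiation list kept all 19 genes, with 12 lower.

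Many glial cells without Olig1 also held genes of excitatory neurogenesis. Neurod2 or Neurod6 was found in 54.9% of them and in 18.6% of the Olig1-positive cells, and Eomes, Neurog2 or Emx1 in 67.7% and 14.3%. The comparison was therefore repeated without cells that held Eomes, Neurog2, Neurod2 or Neurod6, an alternative chosen after the data were seen, which left 12, 29, 9 and 3 Olig1-positive cells and 53, 144, 119 and 72 without Olig1. It called 76 genes, 27 of them higher, and 46 of the 239 first calls that it could test were called again. Olig2 (2.56), Serpine2 (2.97), Zic4 (2.42), Spry2 (2.01), Slc14a2 (1.92), Ptch1 (1.59), Vcan (1.58), Apoe (1.15), Hes5 (1.01) and Ptprz1 (0.74) remained higher, and Pax6 (-1.89), Meis2 (-1.58), Lhx2 (-1.52) and Abracl (-1.30) remained lower. Cdkn1c went from 0.96 to 3.16. Of 38 genes followed there, 20 no longer passed. Among them were Egfr, Cspg5, Bcan, C1ql1, Id3, Sox9, Mfge8, Aldh1l1, Sox2, Ccnd1, Spry1, Sulf1 and Bmp7. So were Nfib, Nfix, Id2, Dcx, Tubb3 and Emx1, which had been lower. The astrocyte lineage list then had 1 of 26 genes higher (median 0.36) and the EGF and FGF list 1 of 18 (0.57). The oligodendrocyte lineage list had 4 of 20 higher (0.89). The neuronal differentiation list had 1 of 18 lower (-0.60) and the pallial list 3 of 7 (-1.52). The median of the radial glia and stem cell list went from 0.49 to -0.22. In that comparison 2 S phase genes and 4 G2 and mitosis genes were lower in the Olig1-positive cells, and all 26 of each list lay below 0.

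Olig2, Serpine2, Ptprz1, Spry2, Ptch1, Apoe, Zic4, Slc14a2, Lhx2, Meis2, Neurog2, Eomes and Neurod6 kept their direction and their call in each alternative that tested them, with or without any 1 library. Of 41 genes followed, 8 lost their call without Het5, 6 without WT6, 3 without WT3 and 2 without Het9, each keeping its direction. Not every one is named here. Bmp7, Spry1, Sulf1, Bcan, C1ql1, Aldh1l1 and Cdkn1c lost their call without Het5, Bmp7, Spry1, Sulf1, Bcan, Aldh1l1 and Cdkn1c without WT6, Bmp7, Spry1 and Aldh1l1 without WT3, and Sulf1 and Id2 without Het9. The fit then has fewer libraries, and the log2 differences moved little for some (Spry1 from 2.20 to between 1.85 and 1.97, Bmp7 from 1.72 to between 1.62 and 1.79) and more for Sulf1 without Het9 (2.07 to 1.57) and C1ql1 without Het5 (1.99 to 1.56). Cdkn1c also lost it with the cells holding Top2a, Dlx1 and Dlx2 kept (0.80, adjusted p = 0.059). At a pseudocount of 0.01, 13 of the 41 no longer passed. Among them were C1ql1, Bcan, Egfr, Spry1, Sulf1, Bmp7, Id2, Aldh1l1, Pax6, Emx1, Tubb3 and Cdkn1c. With no filter on low values 18 of the 41 lost their call, among them the same genes and Sox9, Nfib, Hes5, Sox2 and Abracl. Their log2 differences were as before, since only the number of genes tested and the variance trend changed. With the filter at 0.5, Bcan, Id2, Pax6 and Cdkn1c lost it. With Olig1 at 2 UMIs or more 3 of the 41 lost it, as did 3 without cells with Top2a. The number was 2 with at least 3000 UMIs per cell, 2 with summed UMIs and 1 without doublets. Pdgfra passed without WT3, and Zic1 passed without Het9.

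**Figure D3:**
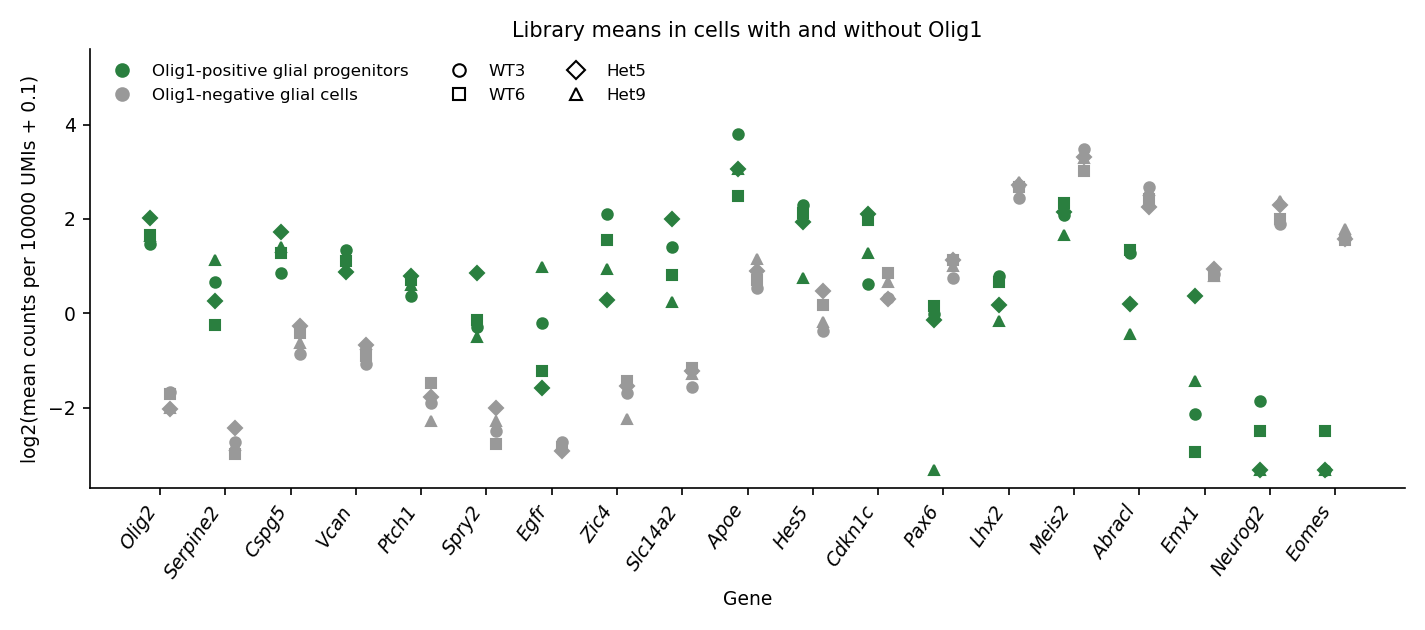
Library means on the scale log2(counts per 10000 UMIs + 0.1) for 19 genes (horizontal axis) in Olig1-positive glial progenitors (green) and in glial cells without Olig1 (gray), with 1 symbol per library. Olig2, Serpine2, Ptch1, Zic4, Slc14a2 and Apoe lie higher with Olig1 in all 4 libraries, and Lhx2, Meis2, Neurog2 and Eomes lie lower.

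The Olig1-positive cells were also set beside the 739 cycling Dlx-positive progenitors (193, 215, 204 and 127 by library), the ventral precursors of interneurons that the rule had set aside. Of 8156 genes, 633 were higher in the Olig1-positive cells (7.76%) and 655 were lower (8.03%). Without Het5 the count of both directions together went from 1288 to 751. Cell cycle and Dlx-linked differences follow from how those cells were chosen. Of the glial lists, 24 of 26 astrocyte lineage genes, 24 of 32 radial glia genes and 14 of 18 oligodendrocyte lineage genes were higher, and 0 were lower. With a mean of at least 0.1 in both kinds of cell these were 9 of 10, 18 of 25 and 9 of 10. Olig2 itself was 0.372 to 0.460 counts per 10000 in the Dlx-positive cells, so the Olig1-positive cells were higher by 2.62 on the log2 scale (SE 0.25, limma adjusted p = 3.13e-07). Apoe was 0.366 to 0.440 there (log2 difference 4.08), Hes5 0.104 to 0.233 (3.70) and Zic4 at most 0.120 (3.81).

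The next comparison was between genotypes, and Setd5 was read first as a check of the labels. Averaged over every cell, the Setd5 level in counts per 10000 was 1.20 in WT3, 1.09 in WT6, 0.530 in Het5 and 0.584 in Het9. It was lower in Setd5+/- by 0.92 on the log2 scale (SE 0.08, limma adjusted p = 0.0068), with genotypes not overlapping. Within the Olig1-positive cells it was found in 47 of the 70, at 2.67 and 1.51 in Setd5+/+ and 0.744 and 1.45 in Setd5+/-. The log2 difference was -0.88 (SE 0.47) and did not pass (adjusted p = 0.88). Setd5 lies on chromosome 6 from 113077365 to 113153435.

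The X-linked transcript Xist, which marks cells with 2 X chromosomes, averaged 25.2 in the Olig1-positive cells of WT3, 20.8 in those of WT6 and 0 in those of either Setd5+/- library. It was at least 83.4-fold higher in Setd5+/+, set against 3 UMIs over the Setd5+/- cells. The Y-linked genes Ddx3y and Eif2s3y were at 0 in WT3 and WT6, and were 0.860 and 1.06, and 1.01 and 0.574, in Het5 and Het9. Genotype and sex therefore cannot be told apart in these libraries, and every difference by genotype that follows is as much one between female and male fetuses.

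Olig1-positive glial progenitors took a smaller share of the cells in both Setd5+/- libraries. They made up 1.15% of cells in WT3 (16 of 1397, exact binomial 95% interval 0.656 to 1.85) and 2.00% in WT6 (38 of 1898, 1.42 to 2.74). In Het5 they made up 0.726% (12 of 1654, 0.375 to 1.26) and in Het9 0.288% (4 of 1389, 0.0785 to 0.736). The genotypes did not overlap, although the intervals of WT3 and Het5 did. The means were 1.57% and 0.507%, a ratio of 3.11 and a difference of -1.07 percentage points. An exact two-sided permutation test over libraries gave p = 0.333, the smallest that 2 against 2 libraries allow. Without WT6 the difference was -0.639 points. The ratio was 3.95 without WT3, 2.26 without WT6, 5.46 without Het5 and 2.17 without Het9, in the same direction.

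Related shares were measured alongside. As a share of the cells that met the rule with or without Olig1, the Olig1-positive cells were 6.53% and 8.44% in Setd5+/+ and 2.77% and 1.50% in Setd5+/-. Many cells in that denominator also held genes of excitatory neurogenesis, as 67.7% of those without Olig1 had Eomes, Neurog2 or Emx1. With each cell thinned to 2000 UMIs the shares of all cells were 0.505% and 0.869% against 0.309% and 0.223%, after leaving out 12, 56, 36 and 44 shallower cells. Any cell with Olig1 made up 2.08% and 2.90% against 1.03% and 0.936%. Glial cells without Olig1 did not separate the genotypes, at 16.4% and 21.7% against 25.5% and 18.9%.

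The Olig1-positive cells were also counted with and without Zic1 or Zic4. Those with either numbered 9 (WT3) and 24 (WT6) against 5 (Het5) and 1 (Het9), or 0.644% and 1.26% of cells against 0.302% and 0.0720%. Olig1-positive cells without Zic1 and Zic4 were 0.501% and 0.738% against 0.423% and 0.216%. The ratio of Setd5+/+ to Setd5+/- means was 5.10 with and 1.94 without the Zic genes, and genotypes did not overlap in either. The first ratio rested on few cells, being 3.16 without Het9, 3.44 without WT6 and 13.3 without Het5, and the difference between the ratios was not tested. Cells with Pdgfra or Sox10 were 0 and 5 in Setd5+/+ and 2 and 1 in Setd5+/-, so that their shares of 0%, 0.263%, 0.121% and 0.0720% overlapped.

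Genes of forebrain regions were also counted outside these 70 cells. Zic4 was found in 8.04% and 9.03% of the other Setd5+/+ cells and in 5.66% and 2.74% of the other Setd5+/- cells. Nkx2-1 was found in 9.92% and 10.0% against 6.58% and 3.25%, and Otx2 in 1.81% and 2.42% against 1.16% and 0.939%. Emx1, the cortical marker, went the other way, at 39.5% and 37.6% against 44.5% and 43.5%. Of 8047 genes tested over all cells, 7 passed between genotypes, among them Setd5 and sex genes. Isl1, a homeobox gene of the subpallium, was another, at 0.448 and 0.558 counts per 10000 against 0.210 and 0.220 (log2 difference -0.93, SE 0.10, limma adjusted p = 0.029). Zic4 (limma adjusted p = 0.47), Nkx2-1 (0.62) and Emx1 (0.70) did not pass, although the shares did not overlap. By level, 1352 of the 8047 genes were lower in both Setd5+/- libraries than in either Setd5+/+ library, and 1259 were higher in both. The part of the region genes in the share of Olig1-positive cells was not tested. Among glial cells without Olig1, Zic1 or Zic4 was found in 13.5% and 24.8% against 21.6% and 11.0%, so the genotypes overlapped there.

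**Figure D4:**
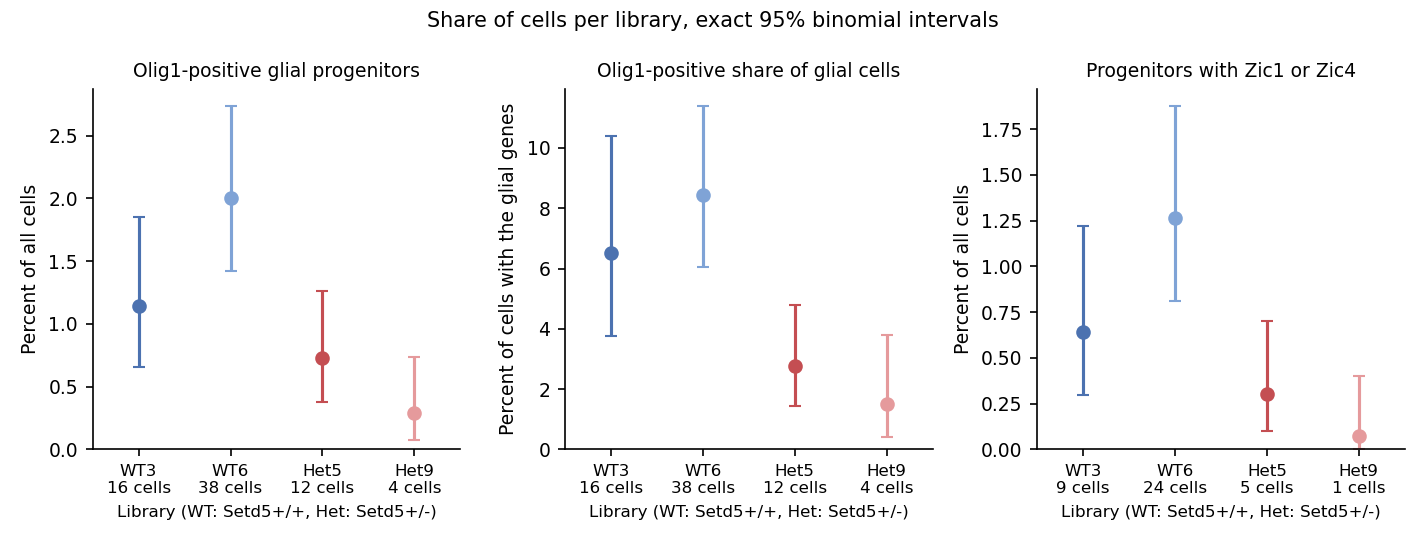
Olig1-positive glial progenitors in each library as a percent of all cells (left) and of cells with the glial genes (middle), and those with Zic1 or Zic4 as a percent of all cells (right); points are single libraries and bars are exact binomial 95% intervals. The Olig1-positive cells make up 1.15% (WT3), 2.00% (WT6), 0.726% (Het5) and 0.288% (Het9) of cells, and in each panel both Setd5+/- libraries lie below both Setd5+/+ libraries.

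The make-up of the Olig1-positive cells was compared between genotypes by 8 marker splits. Top2a, the DNA topoisomerase of dividing cells, was found in 7 of 16 and 13 of 38 cells in WT3 and WT6, and in 2 of 12 and 1 of 4 in Het5 and Het9 (43.8% and 34.2% against 16.7% and 25.0%). Dlx1 or Dlx2 was found in 6 and 9 cells against 2 and 0. Both splits use genes of the rule, which had set aside 3, 5, 1 and 3 Olig1-positive cells with Top2a, Dlx1 and Dlx2, and are given as a description. With those cells kept, an alternative chosen after the data were seen, Top2a was found in 10 of 19, 18 of 43, 3 of 13 and 4 of 7 cells, and Dlx1 or Dlx2 in 9, 14, 3 and 3, so that the genotypes overlapped in both. Pdgfra or Sox10 was found in 0 of the 16 cells of WT3, which allows a share of cells with a UMI of up to 18.8% at 3 counts and 20.6% by the exact binomial 95% interval, and in 5 of 38, 2 of 12 and 1 of 4 in the others. Neurod2 or Neurod6 was found in 3, 6, 3 and 1. Of the 6 splits that use no gene of the rule, the genotypes did not overlap in these 2. They did overlap in the others, among them Egfr, Aqp4 or Aldh1l1, and Eomes, Neurog2 or Emx1. A count of 2 of 6 is near the share over all genes. By level, 19.4% of 8299 genes in these cells were lower in both Setd5+/- libraries and 14.7% were higher in both. The lowest exact permutation p over the 6 was 0.333, the smallest that 2 libraries against 2 allow, and with 4 cells in Het9 and 12 in Het5 single cells moved these shares. At the detection expected for 2000 UMIs per cell 1 of the 6 did not overlap, with Neurod2 or Neurod6 then overlapping, and with the cells holding Top2a, Dlx1 and Dlx2 kept 3 did not.

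Gene by gene, 8299 genes were tested between genotypes within the Olig1-positive cells, with 1 mean per library. Xist alone passed (0.012%), and 365 genes had an unadjusted p under 0.05. Without WT3, WT6 or Het5, 0 genes passed, Xist included, with 31, 102 and 2242 genes at an unadjusted p under 0.05. Without regard to the test, 1613 genes (19.4%) were lower in both Setd5+/- libraries than in either Setd5+/+ library, and 1216 (14.7%) were higher in both. The median log2 difference over all tested genes was -0.10.

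Genes of the G2 phase and mitosis had lower values in Setd5+/-, with none called, and their separation depended on cells that the rule set aside. Of 25 tested, 0 lay above 0 and 20 did not overlap between genotypes, all lower in Setd5+/-, against the 19.4% of all genes. The median log2 difference was -2.03, or -1.85 when the 7 genes at 0 in both Setd5+/- libraries were set to the limit that 3 UMIs give. Of the 17 with a mean of at least 0.1 in both genotypes, 12 did not overlap and were lower (median -1.90), against 983 of 6764 genes. Hmgb2, a chromatin protein of dividing cells, was 13.5 and 16.5 in Setd5+/+ and 5.59 and 6.08 in Setd5+/- (log2 difference -1.34, SE 0.20, limma adjusted p = 0.29). Cenpf, of the kinetochore, was 2.92 and 2.62 against 0.337 and 0.362 (-2.67, SE 0.44, adjusted p = 0.29). Ccnb1, the mitotic cyclin B1, was 2.29 and 1.69 against 0 in both Setd5+/- libraries, at least 7.23-fold higher in Setd5+/+. Top2a, a gene of the rule given as a description, was 3.02 and 3.57 against 0.569 and 0.539.

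With libraries weighted by their number of cells, an alternative chosen after the data were seen, 8 genes passed: Ccnb1, Cenpa, Cenpf, Cks2, H2afx, Hmgb2, Top2a and Xist, all lower in Setd5+/-, of which Top2a belongs to the rule. With the 23 cells that held Top2a left out, the median of the 16 G2 and mitosis genes still tested was 0.22 and 10 lay above 0. Top2a marked 20 of 54 cells in Setd5+/+ and 3 of 16 in Setd5+/-. In glial cells without Olig1 the summed level of the 26 genes did not separate the genotypes, at 25.0 and 28.3 against 30.4 and 25.8, whereas in the Olig1-positive cells it was 36.5 and 49.2 against 11.4 and 12.3.

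The rule itself removes dividing cells, those with Top2a, Dlx1 and Dlx2. With these 12 Olig1-positive cells kept, an alternative chosen after the data were seen, the summed level of the G2 and mitosis genes was 42.5 and 57.1 in Setd5+/+ and 18.3 and 54.8 in Setd5+/-, and the genotypes overlapped. The median log2 difference of the 26 genes tested was then -0.65, with 3 above 0. Hmgb2 went from -1.34 to -0.56, Cenpf from -2.67 to -1.05 and Ccnb1 to -0.65, and none passed (limma adjusted p = 0.97 for each). Het9, in which 3 of 7 cells were of this kind, went from 12.3 to 54.8, while Het5 went from 11.4 to 18.3 with 1 of 13.

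Of the S phase genes, 24 were tested, 18 lay above 0, and of those that did not overlap 11 were higher in Setd5+/-, against 14.7% of all genes, and 1 was lower, with a median of 0.36 and none called. Mcm7, a subunit of the replicative helicase, was 0.931 and 1.19 against 2.06 and 2.02 (log2 difference 0.89, SE 0.38, adjusted p = 0.88). The median turned to -0.79 when cells with Eomes, Neurog2, Neurod2 or Neurod6 were left out and to -0.12 (11 of 18 below 0) without cells with Top2a. With the cycling Dlx-positive cells kept it was 0.53.

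Region genes and glial genes were not called either. Zic1 was 2.00 and 2.73 against 0.769 and 0.362 (log2 difference -1.94, SE 0.48, adjusted p = 0.88), and Zic4 was 4.18 and 2.84 against 1.12 and 1.81 (-1.22, SE 0.37). Both sets of libraries were separate, with lower values in Setd5+/-, but neither gene passed. Nkx2-1 was 0.320 and 1.90 against 0.277 and 0, and the subpallial list had 1 of 10 genes above 0 and 4 that did not overlap, all lower. Without Het9, 4 of the 10 lay above 0, and the median log2 difference of the list went from -1.27 to -0.62. Of the 7 subpallial genes with a mean of at least 0.1 in both genotypes, 1 did not overlap and was lower. Against the 14.7% of all genes that were higher in both Setd5+/- libraries and the 19.4% that were lower, the oligodendrocyte lineage list had 16 of 20 above 0, 6 that did not overlap and were higher in Setd5+/-, 1 lower, and a median of 0.48 (5 higher and 1 lower of the 18 that reached 0.1 in both genotypes). The astrocyte lineage list had 9 of 26 above 0 and, of those that did not overlap, 1 higher and 9 lower (median -0.17). Of the 13 cluster 3 genes, 3 did not overlap and were higher and 4 were lower.

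The genes of the rule are given by genotype as a description. Mean Olig1 was 7.69 (WT3) and 7.62 (WT6) in Setd5+/+, and 14.5 (Het5) and 15.1 (Het9) in Setd5+/-. Single cells weighed heavily here, since Het9 held 4 cells, of which 1 had 50 Olig1 UMIs. Slc1a3 was 11.3 and 9.68 against 4.36 and 8.50, and Mt3 was 12.0 and 11.1 against 5.32 and 7.52.

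**Figure D5:**
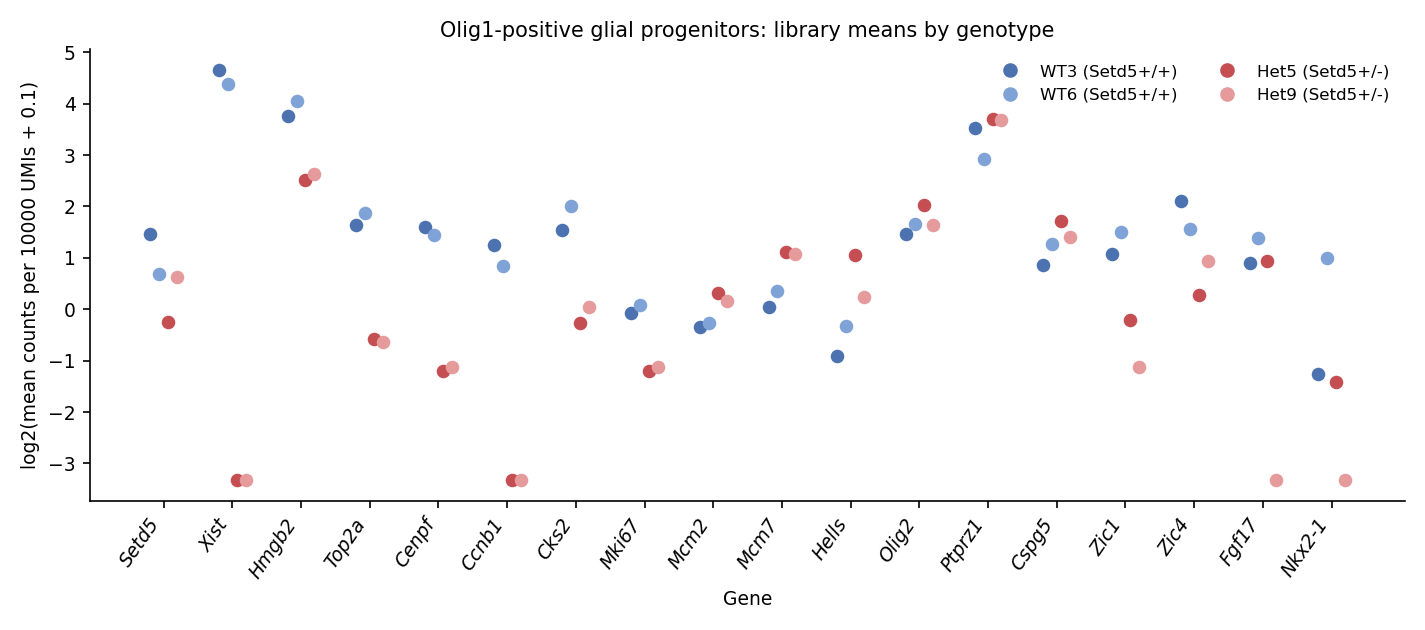
Library means in Olig1-positive glial progenitors on the scale log2(counts per 10000 UMIs + 0.1) for 18 genes (horizontal axis), with the 2 Setd5+/+ and the 2 Setd5+/- libraries in different colors. Xist alone passed the test, while Hmgb2, Top2a, Cenpf, Ccnb1 and both Zic genes are lower in both Setd5+/- libraries without passing.

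Whether the genotype difference was unequal with and without Olig1 was tested on the difference of the 2 log2 values of each library. Of 8378 genes, 0 passed with limma (0%), and 526 had an unadjusted p under 0.05. The 26 G2 and mitosis genes all lay below 0, that is, lower in Setd5+/- in the Olig1-positive cells than in the cells without Olig1, with a median of -1.99, and 20 did not overlap, against 1783 of all genes (21.3%); with the cycling Dlx-positive cells kept in both groups, their summed levels were 42.5, 57.1, 18.3 and 54.8 with Olig1 and 43.6, 37.9, 43.2 and 33.4 without. Neurog2 alone passed when WT3 or WT6 was left out, in fits with 1 residual degree of freedom and 1 Setd5+/+ library. It was at 0 in the Olig1-positive cells of both Setd5+/- libraries, so its value there is set by the pseudocount. Setd5 itself gave 0.02 (SE 0.55, adjusted p = 0.99), with a wide 95% interval of -1.36 to 1.40.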

How the data were processed

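Sorted CD24+ CD45- E18.5 cortical cells of 2 Setd5+/+ and 2 Setd5+/- fetuses were profiled by the authors with the 10x 3′ kit (V2). Cell Ranger 2.1, Seurat 2.3.0 and the mm10 build come from the submitters' processing notes, and no source used here gives the annotation, strand setting or limits on cells. The deposited values are natural log (ln) of 1 + counts per 10000 UMIs, for 16600 genes and 6562 cells. Whole UMIs were recovered from the low values (100% of 14848520 values above 0 were whole within 0.001), with 1258 to 14996 UMIs per cell and 8205330 to 11742956 per library. Counts per 10000 were averaged over the cells of a library, so that each library gave 1 value, and log2(mean + 0.1) was tested with limma 3.58.1 (R 4.3.3; eBayes with a trend, Benjamini-Hochberg adjustment, threshold 0.05) on genes with a mean of at least 0.1. No count model was fitted to these values; summed UMIs, tested in the same way with limma, were an alternative. Shares were compared by exact two-sided permutation over libraries. Each library was 1 fetus, so p-values between genotypes measure the spread between 2 fetuses of a genotype. Those between kinds of cell measure how the difference within a library varied over the 4 libraries.

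The cells and the 17 gene lists were chosen with earlier results of these data known. Genes named were Setd5, the rule's 8 genes, Olig2, sex genes, list members, the 15 largest called changes per direction and the 10 leading ratios; Fgf8, Otx2, Six3 and the Olig1 classes were chosen after their values were seen. Doublets were called with Scrublet (scanpy 1.11.5) and kept in the main values. Python 3.11.15, numpy 2.4.6, pandas 2.3.3, scipy 1.17.1 and matplotlib 3.10.9 were used, and the fitting steps were tested on simulated data. Gene coordinates are from GENCODE on GRCm38. Alternatives changed the pseudocount, the filter, the cells kept, the weights and the libraries. Some results are not reported here.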

Additional observations from a re-analysis of the deposited data

How the results depend on the processing

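The share of Olig1-positive cells kept its direction in every alternative run, and without 1 library the difference ranged from -1.50 to -0.639 percentage points. Setd5 over all cells was called in every alternative, ranging from -0.99 to -0.85 without 1 library, and in the Olig1-positive cells from -1.32 to -0.44 without passing. Genes called by genotype in these cells numbered 0 to 1 without 1 library (0 without WT3, WT6 or Het5), 2 without cells with Top2a (Xist and Mt3, a gene of the rule) and 8 with weights by cells, against 1. Against glial cells without Olig1 the count of 274 became 95 at a pseudocount of 0.01, 59 with no filter, 157 with a filter at 0.5, 76 without cells with Eomes, Neurog2, Neurod2 or Neurod6, 549 with weights, and 186 to 252 without 1 library. Against cycling Dlx-positive progenitors 1288 became 634, 672 and 791 in the first 3 of these, and 751 (without Het5) to 1430 without 1 library. The test of unequal genotype effects gave 0 to 1 without 1 library, Neurog2 being called without WT3 or without WT6, each with 1 residual degree of freedom. Marker splits that did not overlap numbered 4, and 4 to 7 without 1 library (7 without Het5), 3 at the detection expected for 2000 UMIs, and 3 with the cycling Dlx-positive cells kept; leaving out a library sets 1 against 2, so those counts say nothing of stability, and 2 of the 4 use genes of the rule. The genotype difference of Cenpf turned to 0.000303 without cells with Top2a. Aldoc, at 0.17, turned to -0.16 without WT3 and -0.10 without Het9 (0.49 without Het5), -0.80 without cells with Eomes, Neurog2, Neurod2 or Neurod6, and -0.17 with weights. The cause of these shifts was not tested. Weights also turned the median of G2 and mitosis genes, against glial cells without Olig1, to 0.18. Weights, the last cell filter named, the barcode filter, the glial denominator and keeping the cells with Top2a, Dlx1 and Dlx2 were added after seeing the data. The Top2a filter and the keeping of those cells were not run against cycling cells, which are defined by Top2a. No paired analysis was possible because the library names carry no replicate number shared between genotypes. Depth and cell number limit what can be seen: 4 cells in Het9 hold few UMIs, and genes at 0 there may be expressed.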
